A study of Mus musculus with 28 samples.

Results

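RNA pulled down with tagged ribosomes was set against the RNA it was taken from, in the cortex of healthy mice. The comparison held 10 of the 28 libraries of the series: 5 libraries of immunoprecipitated RNA (IP) and 5 of input RNA, chosen by their titles alone, with no measured value used. Every mouse of the series, healthy ones included, was of the Glt25d2 BacTRAP genotype. The healthy libraries are labelled healthy for treatment and phase, and the induction protocol with the peptide MOG35-55 is written against them too, so whether healthy mice had sham injections is not known. For comparison, 5 IP and 5 input libraries came from mice with experimental autoimmune encephalomyelitis (EAE) at 15 days after immunisation (acute), and 4 IP and 4 input libraries from mice at 30 days (chronic). Age is not given in the sources used here, nor is it said that each library is a mouse of its own; p-values therefore rest on library-to-library spread, and some of it may be technical.

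In a bacTRAP line, regulatory DNA of a chosen gene drives a tagged copy of the ribosomal protein L10a. Only cells that use that DNA carry tagged ribosomes, and antibodies against the tag draw down those ribosomes with the messenger RNAs they are reading. Glt25d2 is the older name of Colgalt2, which encodes a collagen galactosyltransferase and whose expression marks neurons of cortical layer 5 that project below the cortex, among them corticospinal neurons. Input RNA comes from the piece of cortex with all its cell types. It also held nuclear RNA and RNA made inside mitochondria, which cytosolic ribosomes do not read. How fully the input kept these RNAs was not tested. Fewer cells of a type and less RNA per cell cannot be told apart in such bulk libraries.

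Fezf2 is the transcription factor that specifies subcerebral projection neurons, and a marker of the tagged neurons that stood clear of input in every IP library, so the DNA just before its start is shown. It lies on the minus strand at chr14:12345866-12346115 (GRCm38.p6, sequence from RefSeq), and the gene body that was counted runs from there down to 12341892. Capitals mark the GC box GGGCGG, searched on both strands (CCGCCC on the other), whose first base lies 85 bases before the start. It is a motif that many promoters share: 32.7% of the 32851 promoter windows of 250 bases hold at least 1 copy, so the match is a description.
Fezf2: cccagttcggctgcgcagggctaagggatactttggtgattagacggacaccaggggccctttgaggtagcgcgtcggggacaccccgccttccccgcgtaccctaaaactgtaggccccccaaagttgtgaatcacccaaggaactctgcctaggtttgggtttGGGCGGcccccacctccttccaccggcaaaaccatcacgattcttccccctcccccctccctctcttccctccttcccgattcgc

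The IP libraries were somewhat shallower than the input libraries and held far fewer genes, also at equal depth. Total counts were 13082121 to 18657486 per IP library, against 17848273 to 19858188 per input library (ratio of means 0.874, exact permutation test, two-sided p = 0.0476). Thinned to 13082121 counts, the IP libraries held 12417, 12553, 13570, 14384 and 11087 genes with at least 1 read, against 20213 to 20476 in input (ratio of means 0.63, exact permutation test, two-sided p = 0.00794, the smallest that 5 against 5 allows). The groups did not overlap, and IP replicate 5 was the lowest. Genes with only 1 to 4 counts made up 2.62% to 3.29% of the genes with reads in IP, against 16.6% to 18.1% in input. A gene of the IP fraction was thus mostly either absent or well covered. Of 3501 genes at 5 to 20 CPM in input (CPM, counts scaled to a common library size), 65.4% to 97.3% had a read in each IP library, against 100% in each input library, and 1783 had reads in all 5 IP libraries. The spread between libraries, as edgeR's common coefficient of variation, came to 1.19 for IP and to 0.0966 for input. It can hold technical as well as biological variation, and the parts of each were not tested. The 10 most abundant genes took 5.05% to 5.54% of the counts in IP, against 3.09% to 3.37% in input. Counting intervals would cover counting error only, since the reads carry no molecular identifiers.

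**Figure D1:**
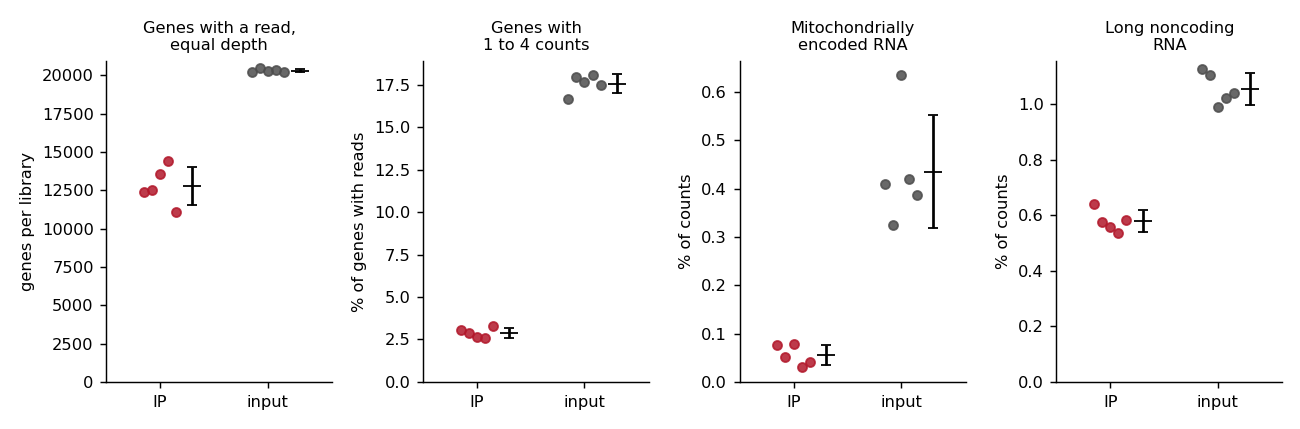
Genes with a read at equal depth, share of genes with reads that have 1 to 4 counts, and shares of counts from mitochondrially encoded and long noncoding RNA, in the 5 IP (red) and 5 input (grey) libraries of healthy cortex; each point is a library, and the bar with whiskers is the mean ± SD. The IP and input points do not overlap in any of the 4 panels.

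Across all genes, 1194 were higher in IP than in input (7.2% of 16580 tested) and 2393 were lower (14.4%), by edgeR's quasi-likelihood test with a Benjamini-Hochberg adjusted p under 0.05. Over all genes the log2 ratio had a median of -0.23. Of the called genes, 248 were at least 2-fold higher and 1866 at least 2-fold lower. A large part of the lower calls lay among weakly expressed genes: 1437 of the 2393 had under 20 CPM in input, and 1339 had no read in any of the 5 IP libraries. Genes with no healthy IP read passed the filter on low counts through other libraries, so a call of them could only be lower. Under 1 CPM in input, 1027 of 2349 genes were lower (43.7%), and these calls are part of the 14.4%. The lower calls of weak genes therefore stand beside the low number of genes found in IP, and the part of that in each call was not tested. At 20 CPM and above in input, 1132 of 7721 genes were higher (14.7%) and 956 were lower (12.4%), and most of the genes named below are of this kind. The shares went with level. At 100 CPM and above 24.4% of genes were higher and 20.7% lower, against 10.5% and 8.83% at 20 to 100 CPM. Of the called genes, 942 higher and 2254 lower ones had no overlap between the 5 IP and the 5 input values, where 7.86% of all genes lay wholly above and 22.4% wholly below.

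Of 16 markers of layer 5 subcerebral projection neurons, 7 were higher in the pulldown and 1 lower, where 7.2% of all genes were higher and 14.4% lower (median log2 ratio 0.62, against -0.23 for all genes). Fezf2 had 251.1, 199.7, 146.5, 190.9 and 260.3 CPM in the IP libraries, against 62.5, 59.5, 47.6, 53.5 and 64.1 CPM in input. It stood 3.65-fold higher, a log2 ratio of 1.87 ± 0.20 (SE, adjusted p = 7.35e-08, edgeR). Every IP library lay far above every input library, and replicate 3 was lowest in each fraction.

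Pou3f1, a POU-domain factor of these neurons, had 254.6, 363.3, 215.5, 229.1 and 230.2 CPM in IP, against 64.0, 77.3, 63.7, 63.7 and 62.0 CPM in input (log2 ratio 1.97 ± 0.20). Replicate 2 was the highest in each fraction. An antisense gene, Gm2164, overlaps Pou3f1, and the counts carry no strand. Crym, a thyroid-hormone-binding crystallin of corticospinal neurons, had 285.9 to 446.3 CPM in IP, against 120.3 to 151.4 CPM in input (log2 ratio 1.41 ± 0.16). Bcl6, a transcriptional repressor, had a log2 ratio of 1.55 ± 0.20, Vat1l 1.05 ± 0.17, the LIM cofactor gene Ldb2 0.89 ± 0.14 and the heavy neurofilament gene Nefh 0.87 ± 0.13 (n = 5 per fraction). None of these 4 overlapped between fractions.

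The driver gene itself did not pass. Colgalt2 had 95.0, 75.8, 49.1, 75.5 and 46.6 CPM in IP, against 54.0, 56.2, 51.7, 49.9 and 53.8 CPM in input (log2 ratio 0.36 ± 0.16, adjusted p = 0.130). IP replicates 1, 2 and 4 were above all input libraries, and IP replicates 3 and 5 were below them all. Without IP replicate 3 its adjusted p was 0.0412, and without IP replicate 5 it was 0.0295. Bcl11b, the zinc finger factor Ctip2 of subcerebral neurons, had 54.9 to 132 CPM in IP, against 92.2 to 137.6 CPM in input (log2 ratio -0.24 ± 0.18, adjusted p = 0.442). The lower member was Slco2a1, a prostaglandin transporter, with no read in the 5 IP libraries and 116 counts over the 5 input libraries, at least 30.6-fold lower against a floor of 3 counts over the IP group. Of the 3009 genes at 1 to 5 CPM in input, as this one is, 334 (11.1%) had no read in any IP library.

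**Figure D2:**
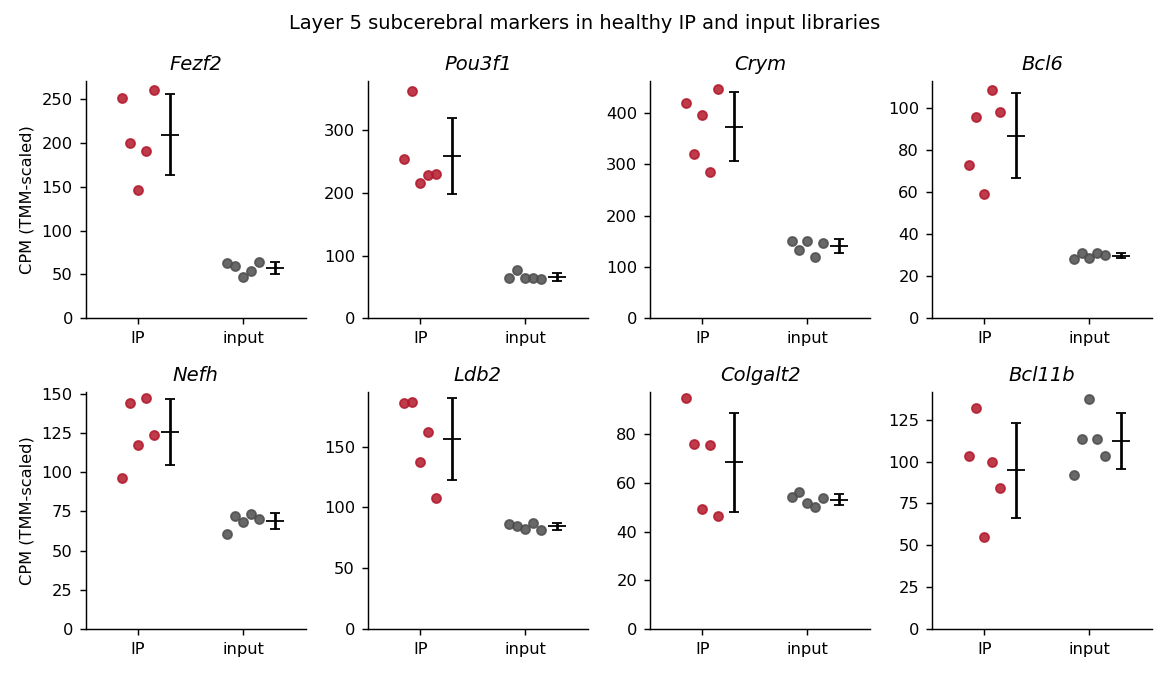
CPM of 8 layer 5 subcerebral markers in each healthy library, IP in red and input in grey, with the mean ± SD beside the points; the vertical axes start at 0. Fezf2, Pou3f1, Crym, Bcl6, Nefh and Ldb2 lie above input in every IP library, while Colgalt2 and Bcl11b overlap.

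Genes that mark other cortical neurons were mostly not higher. Of 14 genes of layers 2 to 4, 4 were lower and 1 higher, beside 14.4% and 7.2% of all genes (median log2 ratio -0.85). Rasgrf2, a Ras exchange factor of upper layers, had 82.8 to 112.4 CPM in IP, against 148.0 to 190.6 CPM in input (log2 ratio -0.87 ± 0.13). Rorb, the nuclear receptor of layer 4, stood at -0.99 ± 0.28, Plcxd2 at -0.86 ± 0.22 and the upper-layer homeobox gene Cux2 at -0.83 ± 0.23, for which IP replicate 2 (86.0 CPM) reached the input range. The exception was Lamp5, a membrane protein listed here as an upper-layer marker, with 352.9 to 454.1 CPM in IP, against 150.3 to 191.1 CPM in input (log2 ratio 1.21 ± 0.13, adjusted p = 4.95e-08).

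Of 12 genes of layer 6 and the subplate, 1 was lower and none higher, beside 14.4% and 7.2% of all genes (median -0.64). The lower gene was Hs3st4, a heparan sulfate sulfotransferase, at -0.83 ± 0.24. Of 8 genes of layer 5 neurons that project within the telencephalon, none was higher and Colq was lower, with no read in IP and 55 counts in input. Colq lay under 1 CPM in input, where 43.7% of genes were lower. In that group Etv1 had 30.6 to 154.3 CPM in IP, against 95.0 to 127.6 CPM in input (log2 ratio -0.12 ± 0.27), and IP replicate 5 held the lowest value; without it the log2 ratio was 0.12. S100a10, a calcium-binding adaptor, stood at 0.55 ± 0.36 (adjusted p = 0.353).

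Genes shared by excitatory neurons lay near the level of input, with 4 of 12 higher, 1 lower and a median of 0.16. At 100 CPM and above in input 24.4% of genes were higher and 20.7% lower. Baiap2, an actin regulator of spines, was higher at 0.68 ± 0.10 and Chn1, a Rac-inactivating protein, at 0.48 ± 0.10. Arpp21 was lower at -0.42 ± 0.13. The vesicular glutamate transporter gene Slc17a7 had 920.9 to 1353 CPM in IP, against 1056 to 1270 CPM in input (log2 ratio 0.06 ± 0.10). The calls of Neurod2 (0.55 ± 0.18) and Nrgn (0.38 ± 0.14) were lost without IP replicate 5, at adjusted p = 0.131 and 0.154, and also without 3 and 6 other single libraries; Neurod2 was also lost without IP replicate 2 and input replicates 3 and 4, and Nrgn without IP replicates 2 and 4 and input replicates 1, 2, 3 and 5.

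Genes of inhibitory neurons were lower or not called: 5 of 15 were lower and none higher, beside 14.4% of all genes lower (median -0.80). Their summed level was 808 to 1096 CPM in IP, against 1382 to 1723 CPM in input. Among the lower genes, Gad2, a GABA-synthesising enzyme, was at -0.74 ± 0.24, the peptide gene Sst at -1.56 ± 0.53, the noncoding Dlx6os1 at -2.50 ± 0.85 and the peptide gene Npy at -1.12 ± 0.41. Each of these 4 lost its call without input replicate 3, at adjusted p = 0.0695 for Gad2, 0.0781 for Sst, 0.0544 for Dlx6os1 and 0.0775 for Npy. Gad2 was also lost without IP replicate 5, and the other 3 without further single libraries, so that 1 to 4 of the 15 genes were lower in the fits that left out a library.

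Markers of striatal neurons give a view of the dissection. Their summed level was 285, 373, 738, 457 and 379 CPM in IP, against 360, 502, 1051, 656 and 459 CPM in input, and replicate 3 was the highest in each fraction. Of 7 genes 1 was lower and none higher (median -1.09), near the 14.4% of all genes that were lower. Choroid plexus and ependymal genes summed to 141 and 158 CPM in input replicates 2 and 3 and to 13.1 to 13.9 CPM in the other 3, while the IP libraries held 10.8 to 63.4 CPM. None of those 5 genes was called. The part of such neighbouring tissue in the results was not tested.

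Among glial genes those of oligodendrocytes had the most lower calls. Oligodendrocyte genes summed to 1136 to 1509 CPM in IP, against 2206 to 3038 CPM in input, with 6 of 13 lower (14.4% of all genes were), none higher and a median of -1.20. Mobp, a myelin protein gene, had 57.4 to 88.3 CPM in IP, against 209.9 to 248.7 CPM in input (log2 ratio -1.72 ± 0.23). The myelin genes Mog and Mbp were at -1.44 ± 0.34 and -0.67 ± 0.20, with groups that did not overlap. Also lower were Mal, lost without IP replicate 2 or input replicate 3 (adjusted p = 0.0584 and 0.0543), and Cldn11, lost without 7 of the 10 single libraries (adjusted p up to 0.126): IP replicates 1, 2 and 5 and input replicates 2 to 5.

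Of 14 astrocyte genes 3 were lower and none higher, beside 14.4% and 7.2% of all genes (median -0.98). With voom weights none of the 14, 3 of the 13 oligodendrocyte genes and 2 of the 15 inhibitory genes were lower. The glutamate transporter gene Slc1a2 had 172.8 to 300.8 CPM in IP, against 462.4 to 637.7 CPM in input (log2 ratio -1.33 ± 0.27). Fgfr3 was at -1.04 ± 0.33 and lost its call without input replicate 3 (adjusted p = 0.0560). Slc1a3 was at -1.49 ± 0.52, with 2.29 CPM in IP replicate 1 and 27.9 to 59.9 CPM in the other IP libraries; it lost its call without IP replicates 1, 2 or 5 or input replicates 3, 4 or 5 (adjusted p up to 0.111). Aldoc, an aldolase of astrocytes, went the other way without passing (0.34 ± 0.15, adjusted p = 0.119).

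Of 8 oligodendrocyte precursor genes, Olig1 was lower (-0.94 ± 0.20), and C1ql1 had no read in IP and 439 counts in input, at least 115.8-fold lower, in the range of 1 to 5 CPM where 11.1% of genes had no IP read. Cspg4, the NG2 proteoglycan that pericytes also carry, was higher at 2.18 ± 0.74, with 12.4 to 33.3 CPM in IP, against 3.12 to 6.01 CPM in input. Its call was lost without IP replicates 3 or 5 or input replicates 2, 3, 4 or 5 (adjusted p up to 0.0764).

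None of 12 microglial genes was called (median -1.26), and 2 of them had reads in all 5 IP libraries. Their sum was 26.5 to 65.7 CPM in IP, against 63.7 to 97.5 CPM in input. Of 12 mural and fibroblast genes 1 was lower, Lum, with no read in IP and 66 counts in input. Of 5 red cell genes 2 were lower, Hba-a2 and Hbb-bt, with no read in IP and 33 and 50 counts in input. Lum, Hba-a2 and Hbb-bt lay under 1 CPM in input, where 43.7% of genes were lower, and the part of missing IP reads in these calls was not tested. The microglial genes had a median of 5.95 CPM in input, and at 5 to 20 CPM only 1.43% of genes were higher and 1.11% lower.

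Endothelial genes had the one positive median among the non-neuronal types. All 10 tested had a positive log2 ratio (median 1.14), and 2 of them passed, where 7.2% of all genes were higher. With a replicate block neither of the 2 passed. The 10 genes had a median of 3.24 CPM in input, and at 1 to 5 CPM 0.199% of genes were higher. Only 4 of the 10 had reads in all 5 IP libraries. The sum of the 10 genes was 90.3 to 143.9 CPM in IP, against 42.2 to 52.9 CPM in input, with no overlap. Slc2a1, the glucose transporter of the blood-brain barrier, had 42.2, 25.4, 40.3, 29.2 and 25.2 CPM in IP, against 20.7, 18.2, 21.2, 19.8 and 22.5 CPM in input (log2 ratio 0.67 ± 0.23, adjusted p = 0.0346). Ly6c1, a surface protein of brain endothelium, had 5.19 to 21.3 CPM in IP, against 2.14 to 4.63 CPM in input (2.26 ± 0.81, adjusted p = 0.0447). The tight junction gene Cldn5 had 46.3, 27.5, 18.6, 28.6 and 0 CPM in IP, against 2.56 to 5.49 CPM in input (2.56 ± 0.97, adjusted p = 0.0595). Only IP replicate 5 lay below the input values, and without it the adjusted p was 0.00669.

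The endothelial transcription factor genes Sox17 and Sox18, named for their size of change, stood at 3.34 ± 1.12 and 2.54 ± 0.87. The 2 called list members and both Sox genes were weakly expressed in input (Slc2a1 at about 20 CPM, the other 3 under 5). Each lost its call with a replicate block and in several fits that left out 1 library. Slc2a1 was lost without IP replicates 1 or 3 or input replicates 1 to 4 (adjusted p up to 0.0908), Ly6c1 in every fit but that without IP replicate 2 (up to 0.102), Sox17 without IP replicate 5 or any 1 of the input replicates (up to 0.127) and Sox18 without IP replicates 1 or 2 or any 1 of the input replicates (up to 0.0837). Of the 10 endothelial list genes none was higher in acute and 1 in chronic EAE, at medians of 0.50 and 0.53, where 8.56% of all genes were higher in acute and 8.74% in chronic mice.

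**Figure D3:**
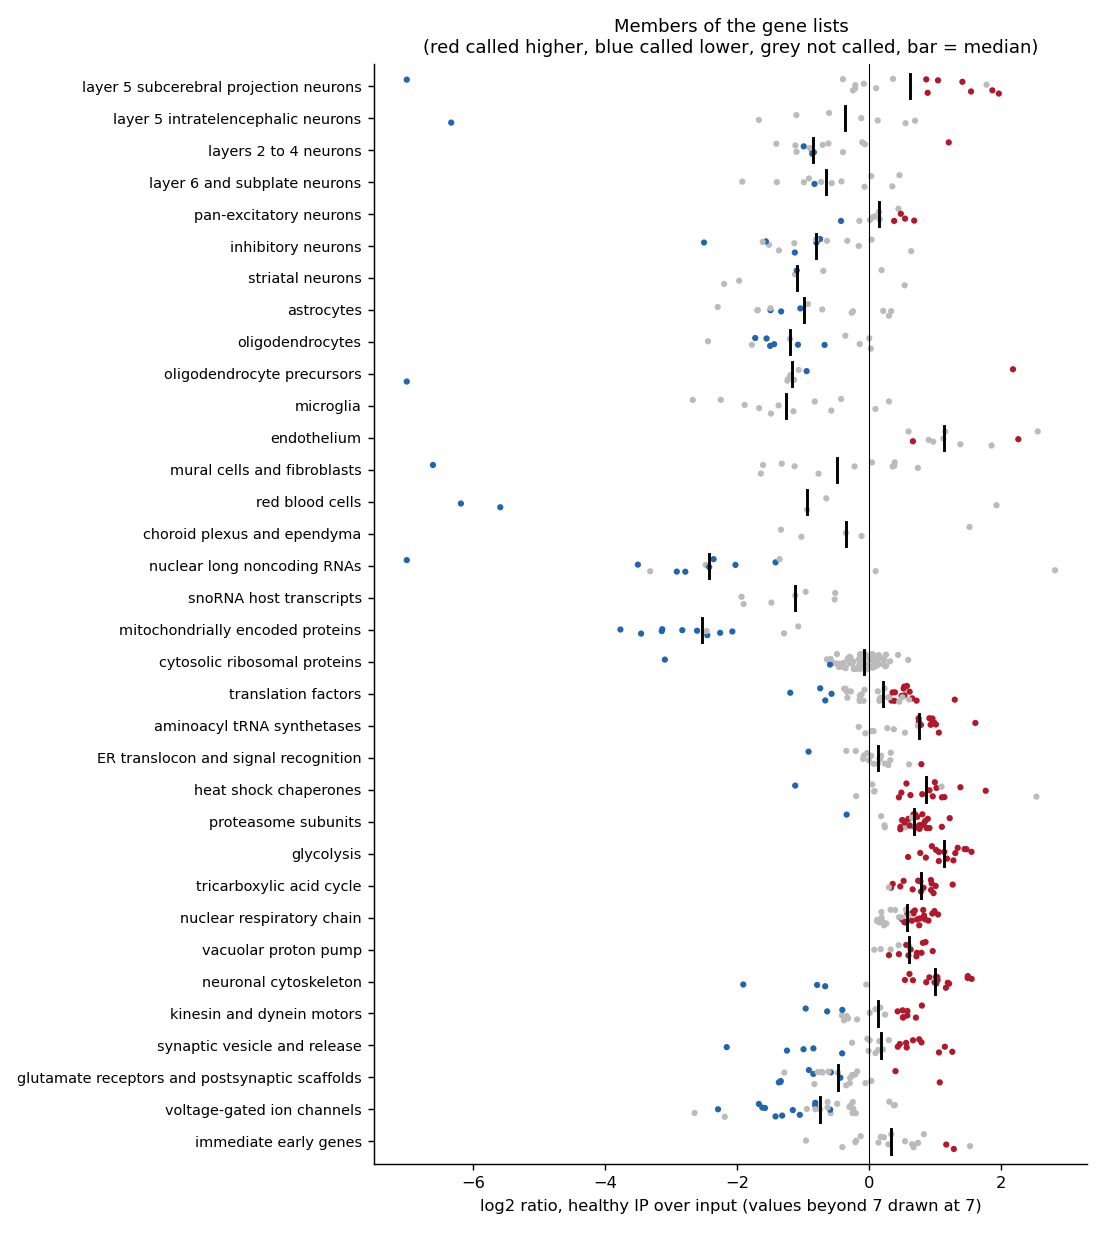
Log2 ratio of healthy IP over input for every tested member of the 34 gene lists, with red for genes called higher, blue for genes called lower, grey for genes not called, and a black bar at each list's median; values beyond 7 are drawn at 7. Layer 5 subcerebral, endothelial, glycolytic and cytoskeletal medians lie right of 0, and nuclear noncoding and mitochondrially encoded medians lie near -2.4 and -2.5.

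Of 13 long noncoding RNAs that stay in the nucleus, 8 were lower and none higher, beside 14.4% of all genes lower (median -2.42), and their sum was 368 to 616 CPM in IP, against 1944 to 3043 CPM in input. Meg3, an imprinted noncoding RNA, had 166.6, 129.2, 52.1, 47.6 and 137.5 CPM in IP, against 1409, 1505, 800.9, 994.3 and 1320 CPM in input. That is 0.0884 of the input level (log2 ratio -3.50 ± 0.31, adjusted p = 2.44e-09), and replicates 3 and 4 were the lowest in each fraction. Malat1, an RNA of nuclear speckles, had 3.36 to 15.8 CPM in IP, against 74.5 to 108.5 CPM in input (-2.91 ± 0.69). Miat was at -2.78 ± 0.77, Snhg11 at -2.42 ± 0.27, Snhg14 at -2.35 ± 0.54, Rian at -1.41 ± 0.16 and, by its size of change, the microRNA host Mir124a-1hg at -2.69 ± 0.68. Firre had no read in IP and 687 counts in input, at least 181.2-fold lower. Several of these genes overlap small RNA genes or antisense transcripts, such as Gm26906 at Meg3. Of 7 host transcripts of small nucleolar RNAs none was called, at a median of -1.12. Of the 26 genes of at least 20 CPM annotated as long intergenic noncoding RNA, 8 were lower (30.8%) and none higher, beside 12.4% lower of all genes of that level.

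Transcripts made and read inside mitochondria took 0.0771%, 0.0513%, 0.0785%, 0.0305% and 0.0408% of the counts in the IP libraries, against 0.409%, 0.325%, 0.634%, 0.420% and 0.387% in input (ratio of means 0.13, exact permutation test, two-sided p = 0.00794). Of 12 mitochondrially encoded protein genes tested 9 were lower (median -2.53), beside 20.7% of genes at 100 CPM and above in input. The cytochrome oxidase gene mt-Co1 had 94.9 to 264.9 CPM in IP, against 1118 to 1988 CPM in input (-3.13 ± 0.35). mt-Nd5 was at -3.45 ± 0.67 with no read in IP replicate 5, mt-Nd2 at -3.14 ± 0.50, mt-Cytb at -2.83 ± 0.27, mt-Nd1 at -2.60 ± 0.34 and the small ribosomal RNA mt-Rnr1 at -2.55 ± 0.54. The transfer RNA gene mt-Tp had no read in IP and 522 counts in input. Genes of the compact mitochondrial genome overlap, such as mt-Nd5 with mt-Nd6. With weights that let the IP libraries vary more (limma voom), 1 of these 12 was lower, at a median of -2.76. In contrast, 18 of 34 nuclear genes for the respiratory chain were higher and none lower (median 0.57), beside 24.4% and 20.7% at 100 CPM and above.

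Rpl10a, the gene whose protein carries the tag in bacTRAP lines, had 162.8, 94.4, 99.8, 130.3 and 200.9 CPM in IP, against 134.7, 132.1, 122.6, 126.1 and 132.5 CPM in input (log2 ratio 0.09 ± 0.20, adjusted p = 0.858). Reads of a tagged copy and of the gene itself cannot be told apart in these counts. Genes of the other cytosolic ribosomal proteins were near input as well: of 76 tested none was higher and 2 were lower, Rpl24 and Rps15a, with a median of -0.07 that turned to 0.0084 without IP replicate 2 and to 0.005 without IP replicate 4. Their sum spread more in IP, at 15338, 11109, 16214, 12388 and 18816 CPM, against 14398 to 15407 CPM in input.

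Of 38 translation factors 13 were higher and 4 lower (median 0.21), beside 24.4% and 20.7% of genes at 100 CPM and above in input. Eef1a2, the elongation factor form of mature neurons, had 3033, 4401, 3630, 3877 and 4529 CPM in IP, against 1493 to 1633 CPM in input (log2 ratio 1.30 ± 0.11). Its widely expressed partner Eef1a1 had 1620 to 1947 CPM in IP, against 1799 to 1907 CPM in input (-0.07 ± 0.09, adjusted p = 0.71). Eef2, which moves the ribosome along, was higher at 0.62 ± 0.09, and Eif3c, a subunit of the scaffold of initiation, at 0.54 ± 0.09. Eif4g2 was lower at -0.66 ± 0.12 and Eif2s3x at -1.19 ± 0.24.

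Of 19 aminoacyl tRNA synthetases, the enzymes that charge tRNAs, 11 were higher and none lower (median 0.76). At 20 to 100 CPM in input 10.5% of genes were higher and 8.83% lower. Aars led with 519.4 to 792.4 CPM in IP, against 209.7 to 233.7 CPM in input (1.61 ± 0.12), followed by Wars (1.01 ± 0.11), Hars (0.96 ± 0.16), Gars (0.95 ± 0.12), Sars (0.93 ± 0.13) and Yars (0.91 ± 0.12). Lars2, the mitochondrial leucine enzyme and not on that list, met the rule for large changes at 2.12 ± 0.49. Its call was lost with limma voom weights (adjusted p = 0.26). Of 19 genes of the ER translocon and signal recognition, 1 was higher (Srp68) and 1 lower (Sec63).

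In energy metabolism all glycolytic genes passed, and part of the genes of the later steps did. All 15 glycolytic genes tested were higher, with a median log2 ratio of 1.14. Of all genes 7.2% were higher, and of those at 100 CPM and above in input 24.4%. Their summed level was 29460, 32210, 33861, 34346 and 37768 CPM in IP, against 13487 to 14010 CPM in input. Pkm, the last kinase of the pathway, had 4794, 5100, 5386, 5560 and 5741 CPM in IP, against 1784 to 1888 CPM in input (1.55 ± 0.11, adjusted p = 2.05e-11). The enolase genes Eno1 and Eno2 were at 1.48 ± 0.12 and 1.31 ± 0.08, Gpi1 at 1.34 ± 0.10, Gapdh at 1.28 ± 0.12 and Hk1, which starts the pathway, at 1.14 ± 0.11. Every one of the 15 kept its call in each fit that left out 1 library.

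Of 16 genes of the tricarboxylic acid cycle and its entry 15 were higher (median 0.78), beside 24.4% of genes at 100 CPM and above in input. The malate dehydrogenase genes Mdh2 and Mdh1 were at 1.27 ± 0.14 and 0.94 ± 0.09. In the respiratory chain the ATP synthase genes Atp5a1 and Atp5b were at 0.96 ± 0.10 and 0.77 ± 0.10, the complex I gene Ndufv1 at 1.05 ± 0.16 and the complex III gene Uqcrc1 at 0.90 ± 0.15. Of 16 subunits of the vacuolar proton pump, which acidifies lysosomes and synaptic vesicles, 11 were higher and none lower (median 0.60), beside the same 24.4%. Among the higher ones were Atp6v0d1 (0.72 ± 0.10) and Atp6v1b2 (0.60 ± 0.08).

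Of 20 chaperones 13 were higher (7.2% of all genes were, and 24.4% of those at 100 CPM and above in input). The small heat shock gene Cryab was lower, and the median was 0.86. Hsp90ab1 had 3216 to 4259 CPM in IP, against 1700 to 1787 CPM in input (log2 ratio 1.14 ± 0.10), and the co-chaperone Stip1 was at 0.997 ± 0.11. Of 31 proteasome subunits 22 were higher and 1 lower (median 0.68), beside 24.4% and 20.7% of genes at 100 CPM and above in input. Psmb1 of the catalytic ring was at 1.22 ± 0.21, the ATPase Psmc4 at 0.73 ± 0.11 and Psmd3 of the lid at 0.70 ± 0.11. The lower subunit was Psmd1 (-0.34 ± 0.12).

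Of 20 genes of the neuronal cytoskeleton 16 were higher and 3 lower (median 1.004), beside 24.4% and 20.7% of genes at 100 CPM and above in input. The neurofilament gene Nefm had 831.5, 951.7, 850.0, 1138 and 1024 CPM in IP, against 285.6, 331.6, 297.2, 375.1 and 342.5 CPM in input (1.55 ± 0.10), and its light partner Nefl was at 1.19 ± 0.10. The tubulin genes Tubb2a and Tubb3 were at 1.498 ± 0.12 and 1.49 ± 0.11. Map2, the microtubule protein of dendrites, had 191.6 to 271.7 CPM in IP, against 768.9 to 892.5 CPM in input (-1.90 ± 0.11, adjusted p = 6.26e-13), with Map1b at -0.79 ± 0.14 and Map1a at -0.66 ± 0.14. The 16 higher genes had 1136 to 5782 bases of exon, and the 3 lower ones 11852 to 16449.

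Of 20 motor genes 8 were higher and 3 lower (median 0.14), beside 24.4% and 20.7% of genes at 100 CPM and above in input. The kinesin light chains Klc1 and Klc2 were at 0.80 ± 0.09 and 0.71 ± 0.11 and the dynactin gene Dctn1 at 0.58 ± 0.09. The heavy chain gene Kif5a was lower at -0.63 ± 0.13, as were Kif5b and Kif2a.

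Of 24 genes of synaptic vesicles and release 10 were higher and 5 lower (median 0.18). The 5 lower ones stood near the 20.7% of genes lower at 100 CPM and above in input, where 24.4% were higher. Higher were the fusion ATPase gene Nsf (1.06 ± 0.10) and its adaptor Napa (0.67 ± 0.09), Dnm1, which pinches off vesicles (1.15 ± 0.11), and the vesicle GTPase gene Rab3a (0.80 ± 0.09). Lower was Pclo, a scaffold of the active zone, which had 11.2 to 28.9 CPM in IP, against 73.3 to 94.7 CPM in input (-2.15 ± 0.32). Also lower were Bsn (-1.24 ± 0.28) and Rims1 (-0.99 ± 0.24) of the same zone, Cplx2, a clamp of vesicle fusion (-0.84 ± 0.11), and Unc13a. The higher genes had a median of 4499 bases of exon, and the lower ones 12623.

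Of 25 glutamate receptors and postsynaptic scaffolds 2 were higher and 7 lower (median -0.47), beside 24.4% and 20.7% of genes at 100 CPM and above in input. The obligate NMDA receptor subunit gene Grin1 had 248.1, 459.4, 456.2, 457.1 and 386.4 CPM in IP, against 167.3, 180.2, 236.9, 192.1 and 178.3 CPM in input (1.07 ± 0.17), and Camk2b was the other higher gene. Its partner subunit gene Grin2b was lower, at 71.3 to 139.6 CPM in IP, against 242.0 to 299.9 CPM in input (-1.37 ± 0.24). The scaffold genes Shank1 (-1.34 ± 0.25), Dlg2 (-1.34 ± 0.26), Homer1 (-0.91 ± 0.17) and Dlgap1 (-0.84 ± 0.16) were lower as well.

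Voltage-gated ion channels were lower or not called, with 11 of 29 lower (14.4% of all genes were), none higher and a median of -0.74. The list had medians of 89.8 CPM in input and 9128 bases of exon. At 20 to 100 CPM in input 8.83% of genes were lower. Among genes of at least 20 CPM with 8000 bases of exon or more, 30.0% were lower, at a median of -0.58. Kcnq3, a subunit of the M-current channel, was at -1.67 ± 0.23, the calcium channel subunit gene Cacnb4 at -1.62 ± 0.20, Kcnh7 at -1.57 ± 0.21, Cacna1e at -1.32 ± 0.25, the fast-spiking channel gene Kcnc1 at -1.15 ± 0.20 and Kcna1 at -0.81 ± 0.14. The lower channel genes had 6196 to 24813 bases of exon.

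Exon length went with the ratio beyond these lists too, at the level where it was examined. Among genes of at least 20 CPM in input, the median log2 ratio was 0.28 for the 569 genes under 1500 bases, 0.26 for 1675 genes of 1500 to 3000, 0.00 for 2303 genes of 3000 to 5000, -0.24 for 1867 genes of 5000 to 8000 and -0.58 for 1307 genes above. Of the shortest class 16.7% were higher and 2.81% lower, and of the longest 4.90% and 30.0%. With a length trend taken out of each library, 16 cytoskeletal genes were still higher and 2 lower, 10 synaptic vesicle genes higher and 4 lower, 11 channel genes lower and 15 glycolytic genes higher. The calls of Map1a, Dlgap1 and Arpp21 were lost in that fit.

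**Figure D4:**
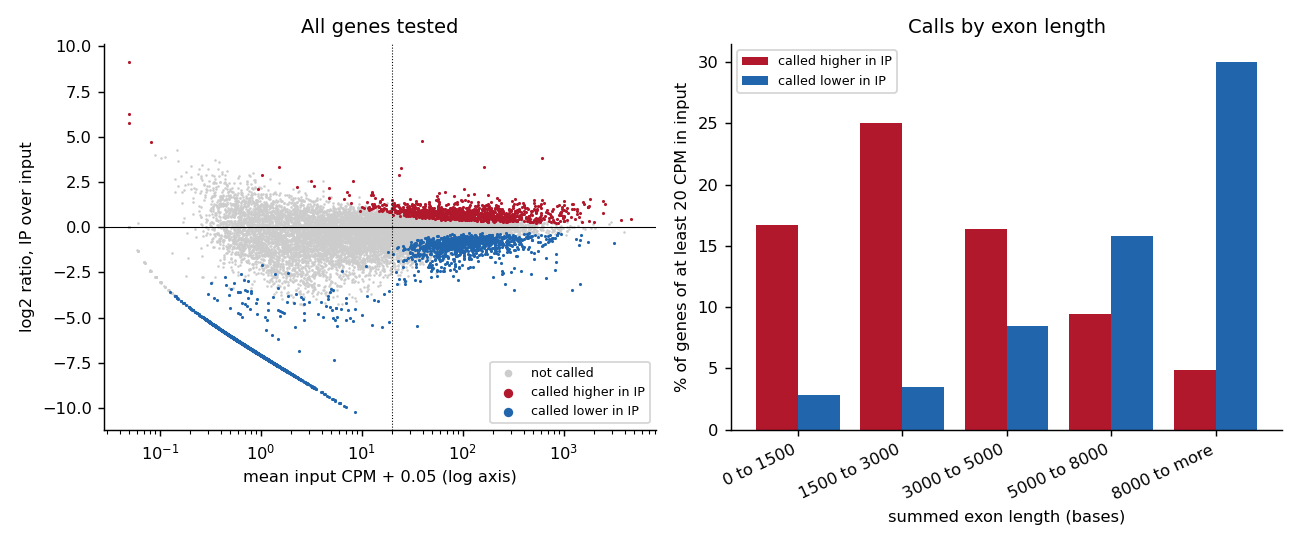
Left, log2 ratio of healthy IP over input against mean input CPM + 0.05 (log axis) for all genes tested, with a dotted line at 20 CPM; the curved lower edge holds genes with no read in IP. Right, the share of genes of at least 20 CPM in input called higher (red) or lower (blue) by summed exon length, where lower calls grow from 2.81% in the shortest class to 30.0% in the longest.

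Some genes stood far outside these groups. Atg7, an activating enzyme needed to build autophagosomes, had the largest ratio among the abundant genes, with 922.7, 1206, 987, 1181 and 1056 CPM in IP, against 36.6 to 42.8 CPM in input (27.5-fold). Kalrn, a guanine nucleotide exchange factor of dendritic spines with 18660 bases of exon, had 9304, 8340, 7584, 11560 and 5999 CPM in IP, against 499.9 to 664.3 CPM in input (14.1-fold). The ubiquitin ligase gene Ubr3 had 1762, 1729, 1756, 1747 and 1059 CPM in IP, against 155.3 to 174 CPM in input, and replicate 5 was the lowest of the IP libraries for both Kalrn and Ubr3. Sh2d3c, an adaptor that the antisense gene 6330409D20Rik overlaps, had 180.3 to 289.6 CPM in IP, against 20.6 to 31.6 CPM in input.

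Further down, Yeats2, a histone reader, had a log2 ratio of 2.89 ± 0.26, the splicing factor Prpf8 1.86 ± 0.22, the fatty acid synthase Fasn 1.76 ± 0.15, Luzp1 1.76 ± 0.18 and the helicase Ddx46 1.72 ± 0.18. In none of these did the fractions overlap. Among weaker genes Xdh, xanthine dehydrogenase, was at 2.90 ± 0.84 and the telomere-binding Zbtb48 at 2.57 ± 0.37. On the lower side, apart from nuclear and mitochondrial RNAs, Trank1 had 30.5 to 50.6 CPM in IP, against 178.8 to 283.6 CPM in input (-2.61 ± 0.17), and the zinc finger gene Zfp445 was at -2.45 ± 0.73.

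Weak genes without a single IP read gave the lowest ratios. Exph5, Zc3h11a, Adamts20 and Sned1 had 651, 599, 596 and 584 counts over the 5 input libraries, at least 171.7-, 158.0-, 157.2- and 154.1-fold lower in IP against the floor of 3 counts. The floor covers counting error only, and 10 of the 3501 genes at 5 to 20 CPM in input had no IP read, as had 334 of the 3009 at 1 to 5 CPM. Zc3h11a shares exons with Zbed6, so reads could not be assigned between them.

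Of 19 immediate early genes, which rise within minutes of neuronal activity, 2 were higher and none lower (median 0.34), near the 7.2% of all genes that were higher, and with voom weights none was. Egr4 had 160.7, 294.8, 139.8, 115.2 and 284.0 CPM in IP, against 102.4, 94.5, 86.4, 49.2 and 75.4 CPM in input (1.29 ± 0.25). Nr4a3 was at 1.17 ± 0.38 with 287.1 CPM in IP replicate 1 and 53.9 to 171.7 in the others; without IP replicate 1 its adjusted p was 0.222, and it was also lost without IP replicate 2 or input replicates 3 or 4. The list's sum was lowest in replicate 4 of each fraction, at 1265 CPM in IP, against 1127 CPM in input, while the other libraries held 2521 to 3368 CPM in IP, against 2018 to 2561 CPM in input.

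The healthy ratio was then set against that in EAE, to see whether the pulldown behaved alike across phases. Between healthy and acute mice the ratio differed in 1 of 16580 genes (0.00603%), by edgeR's test of the interaction; at an unadjusted p under 0.05 there were 1901, and the DESeq2 Wald test called 363. The 1 gene was Nefm, with a log2 ratio of 1.55 ± 0.10 in healthy, against 2.38 ± 0.11 in acute mice (difference -0.82 ± 0.14, adjusted p = 0.0492). Its call was lost without IP replicates 1, 3 or 5 or input replicates 2 to 5. Nefh followed without passing, at 0.87 ± 0.13 in healthy, against 1.80 ± 0.13 in acute mice (adjusted p = 0.0706), as did Mast3, a kinase gene, at 0.20 ± 0.10 against 0.96 ± 0.10 (adjusted p = 0.0706). Ocm had reads in 4 of 5 healthy IP libraries and in none of the acute ones, and Sag in none of the healthy IP libraries and in 4 of 5 acute ones, at the same adjusted p of 0.0706.

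Between healthy and chronic mice 170 genes differed (1.03%), 65 with a higher and 105 with a lower ratio in healthy mice. The 105 included 54 that were already higher in IP in healthy mice and 29 that were lower there, and 21 of the 105 had no read in any healthy IP library. In chronic mice 78 of the 105 were higher in IP. Of the 65, 61 were lower in IP in chronic mice and 4 in healthy mice. The 65 were weakly expressed, with a median of 3.60 CPM in input, against 119.5 CPM for the 105. The glycogen phosphorylase gene Pygb stood at -0.30 ± 0.14 in healthy, against 1.14 ± 0.16 in chronic mice (difference -1.44 ± 0.22, adjusted p = 0.00174). The pyruvate carboxylase gene Pcx was at 0.07 ± 0.13 in healthy, against 1.37 ± 0.15 in chronic mice, the phosphofructokinase gene Pfkp at 0.59 ± 0.13 against 1.84 ± 0.15, Ogdhl of the mitochondrial matrix at 0.78 ± 0.11 against 1.81 ± 0.12 and the coatomer gene Copg1 at 0.43 ± 0.10 against 1.45 ± 0.11. In healthy mice Pygb had 75.7 to 135.1 CPM in IP, against 135.0 to 150.3 CPM in input. The count of 170 fell to 40 to 65 when 1 healthy input library was left out and reached 404 without IP replicate 4 and 410 without IP replicate 5. With a replicate block it was 28.

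Mitochondrially encoded RNA lay lower in the pulldown of EAE mice by its median, with 2 of 12 genes passing the test of the difference. The mitochondrially encoded share of counts was 0.0305% to 0.0785% in healthy IP libraries, against 0.0108% to 0.0239% in acute and 0.0172% to 0.0322% in chronic ones, while input held 0.325% to 0.634% in healthy, against 0.339% to 0.749% in acute and 0.354% to 0.873% in chronic libraries. The median log2 ratio of the 12 genes was -2.53 in healthy, against -4.45 in acute and -4.37 in chronic mice, and the difference passed for mt-Cytb and mt-Nd4 in the chronic comparison (1.53 ± 0.39 and 2.07 ± 0.46). In the 10 fits that left out 1 healthy library, mt-Cytb kept this call in 4 and mt-Nd4 in 6, and both lost it with voom weights. Ribosomal protein genes were at -0.07 in healthy, against -0.86 in acute and -0.60 in chronic mice, with 2 lower calls in healthy, against 43 in acute and 24 in chronic mice, where 10.1% and 20% of all genes were lower, and no member's difference passed. Layer 5 subcerebral markers were at 0.62 in healthy, against 0.88 and 0.59, and 1 member, Nefh, differed from chronic mice (-0.88 ± 0.19). A read was found for 11087 to 14416 genes per healthy IP library, against 9566 to 17995 per acute and 10933 to 13746 per chronic IP library; the part of this and of depth in the differences was not tested.

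**Figure D5:**
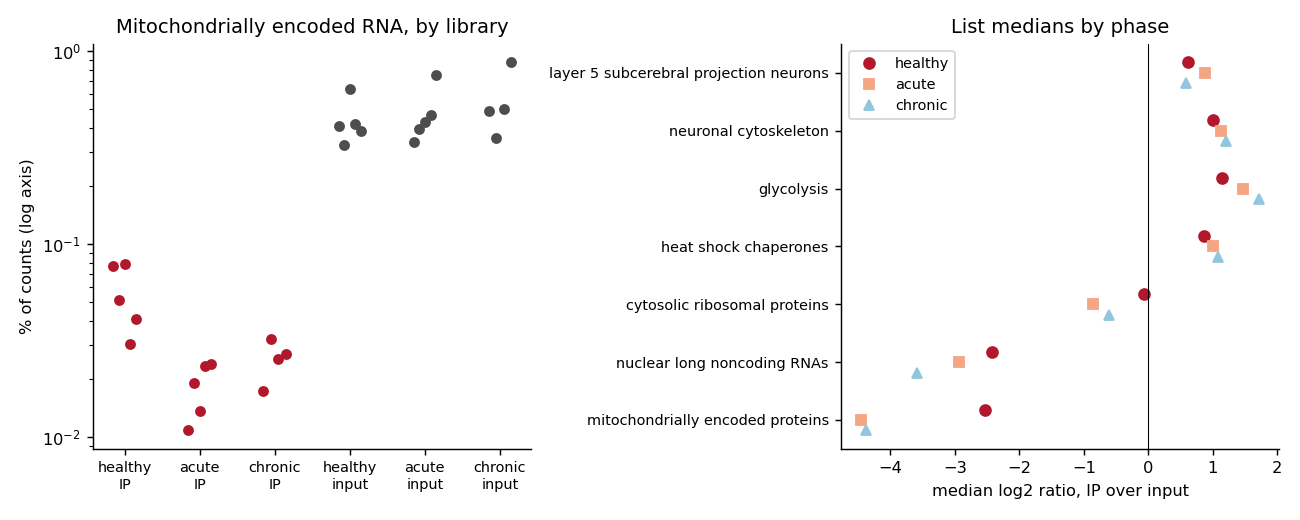
Left, share of counts from mitochondrially encoded genes in each library by phase, on a log axis, IP in red and input in grey. Right, median log2 ratio of IP over input for 7 lists in healthy (circles), acute (squares) and chronic (triangles) mice; mitochondrially encoded genes lie at -2.53 in healthy, against -4.45 and -4.37 in EAE.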

How the data were processed

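RNA-seq counts per gene from 28 libraries, made with poly A enrichment per the labels' protocols, were analysed. The deposited values are raw counts from featureCounts 1.5.1, per the file headers, on exons grouped by gene (Ensembl 79, GRCm38), in read pairs and without strand; STAR 2.4, DESeq2 and GRCm38 (mm10) are named in the submitters' processing notes. The header names 36 alignment files; 28 columns were mapped to libraries by their descriptions, and others were not analysed here. Since strand was not kept, overlapping and antisense genes add to or take from each other, and copies such as pseudogenes may share reads.

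Counts of all 28 libraries were fitted together by fraction and phase with edgeR 4.0.16 in R 4.3.3 (filterByExpr, minimum count 10 and total 15; TMM scaling; robust quasi-likelihood F test; Benjamini-Hochberg over 16580 genes; called at adjusted p under 0.05). Values are log2 ratios ± SE, IP over input. Levels are CPM on the TMM-scaled size. Each gene had the same dispersion in both fractions and all phases, though edgeR's common coefficient was 1.19 in healthy IP and 0.0966 in healthy input. Each SE and p therefore pools unlike spreads, EAE libraries included, and is not the spread of the healthy IP libraries alone. The interactions test healthy minus EAE ratios. Library values were compared by exact permutation of the libraries as unpaired. Folds against no read use a floor of 3 counts over the 5 IP libraries. All 34 lists (625 genes, 619 matched), the markers and the alternatives were chosen with earlier results of these data known. The counts of members of each list are to be read against the shares of all genes called (7.2% higher, 14.4% lower) and of genes of like level. At 100 CPM and above in input these shares were 24.4% and 20.7%. Lists had no test of their own, and medians with unread members at their bound were equal to those given.

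The naming rule took Fezf2, Pou3f1, Crym, Colgalt2 and Rpl10a, the 12 higher and 12 lower called genes of largest ratio at average log2 CPM of at least 5 without overlap, 6 and 6 at 1 to 5, up to 6 members of each list by p, and 5 genes per interaction. Genes outside it, such as Vat1l, Bcl11b, Slco2a1, Etv1, Slc17a7, Eef1a1, Map1a, Map1b, Pclo, Bsn, Rims1 and those given only to complete a count, were named after their values were seen. Alternatives were DESeq2 1.42.0 (size factors, Wald test), limma 3.58.1 voom weights, other filters, a length offset, a replicate block, the 10 healthy libraries alone and each library left out; for the lists, the voom weights, length offset and filter at a mean of 5 CPM, and the 20 CPM limit throughout, were chosen after seeing the data. The pipeline was tested on simulated data; there, unchanged genes that were called lay mostly below 20 CPM and on the lower side, which is why counts at 20 CPM and above are given. Figures used Python 3.11.15 and matplotlib 3.10.9. Values of some genes that the naming rule took are not reported here.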

Additional observations from a re-analysis of the deposited data

Results flagged for a closer look

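Within the groups of 5 libraries, 20 of 394 checks showed 1 library far from the other 4; chance flags about 1 in 20. In IP, replicate 1 was high for Fgfr3 (20.4 CPM) and low for Eef2 (1227 CPM) and Tubb2a (1447 CPM), replicate 2 was high for Pou3f1 (363.3 CPM), replicate 3 was low for Xdh (4.06 CPM), and replicate 5 was high for Rab3a (1807 CPM) and Kcnc1 (110.2 CPM) and low for Ubr3 (1059 CPM) and Pygb (75.7 CPM). In input, replicate 2 was high for Pou3f1 (77.3 CPM), replicate 3 for Arpp21 (666 CPM), Sst (213.4 CPM), mt-Rnr1 (357.5 CPM), Cacna1e (170.1 CPM) and the summed microglial genes (97.5 CPM) and low for Sox17 (0.994 CPM), replicate 4 was high for Pkm (1888 CPM), Eno2 (1299 CPM) and the summed layer 6 genes (572.8 CPM), and replicate 1 was low for the summed ion channels (3448 CPM).

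By the interaction test of edgeR, these differences of log2 ratios, healthy minus chronic, passed. Negative ones were Nefh (-0.88), Nefm (-0.92), Nefl (-0.74), Rasgrf2 (-0.84), Eef2 (-0.57), Eif3c (-0.66), Hsp90aa1 (-0.65), Hsp90ab1 (-0.64), Hsph1 (-0.97), Gpi1 (-0.61), Hk1 (-0.78), Atp6v1b2 (-0.53), Copg1 (-1.01), Pygb (-1.44), Pcx (-1.31), Ogdhl (-1.03), Pfkp (-1.25) and Sag (-8.43). Positive ones were mt-Cytb (1.53), mt-Nd4 (2.07) and Ocm (8.90). Sag had no read in healthy IP and Ocm none in chronic IP, so their fitted sizes depend on the prior count. Healthy minus acute, Nefm passed (-0.82). Of these, Hsph1, Pygb, Pcx and Ogdhl passed under every alternative run.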

How the results depend on the processing

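Of the named genes called between IP and input, 105 of 142 kept direction and call under every alternative that tested them, and none reversed. Most genes had 18 alternatives, while weak genes with no IP read, such as Firre and Sag, had 17. Higher genes numbered 987 to 1230 without 1 healthy library, and lower genes 2156 to 2960. Lower genes were 4107 with no filter on low counts, 858 at a mean of at least 5 CPM, 4335 with voom weights and 1033 of the genes at 20 CPM and above adjusted alone (added after seeing the data), where 1202 were higher. The ratio of genes detected was 0.61 to 0.65 and that of the mitochondrial share 0.11 to 0.14 without 1 library. Genes that differed from acute were 363 by the DESeq2 Wald test, 0 with voom weights or the length offset and 0 to 47 without 1 library; from chronic, 47 without a filter, 958 by the Wald test, 47 with voom weights and 40 to 410 without 1 library. The causes were not tested. DESeq2's size factors gave a median log2 ratio over all genes of -0.25, against -0.23 with TMM.

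Some values near 0, none of them called, changed sign. With the length offset Slc17a7 was at -0.0935, Pcx at -0.05998, Rpl10a at -0.0106 and the ribosomal protein median at 0.0179. At a mean of at least 5 CPM the layer 5 intratelencephalic median was 0.0447. Without 1 library Etv1 ranged from -0.297 to 0.117, Rpl10a from -0.0895 to 0.196, Pcx from -0.013 to 0.119 and the ribosomal protein median from -0.166 to 0.00837.

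IP and input of 1 number correlated at 0.163, 0.200, 0.252, 0.128 and 0.0523, against at most 0.0619 between other numbers. Since 1 of the 5 pairs was under 0.1 and the labels do not tie an IP to an input library, the numbers were not taken as pairs; 4 of the 5 IP libraries correlated best with their own number, a hint of pairing from the data. With a replicate block, 1007 genes were higher and 2432 lower, 0 differed from acute and 28 from chronic, and none of the 10 endothelial genes was called. Slc2a1, Ly6c1, Sox17, Sox18, Cspg4, Sst, Dlx6os1, Xdh and Zfp445 did not pass in that fit. Below 20 CPM in input, the low number of genes with reads in IP, also at equal depth, limits what can be said.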
